A study of Homo sapiens with 9 samples.

Results

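The neurofilament genes NEFL, NEFM and NEFH and the alpha-internexin gene INA were followed in LNCaP:C42 prostate cancer cells that carried shRNAs against METTL3 or a scrambled shRNA. They were found by symbol and make up 4 of the 60675 genes in the count files. NEFM, NEFL and INA were chosen by their log2 fold change between the 2 METTL3 shRNAs, in which they ranked 18, 86 and 81 from the lowest of 19278 tested genes, and NEFH is the remaining neurofilament subunit. Their levels in all 3 groups are therefore given as a description, with no test. NEFH was not picked for its values, but its counts were too low for the filter of the test across all genes, which 3 of the 4 members passed.

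Neurofilaments are the intermediate filaments of nerve cells, most abundant in long axons. NEFL, the light chain, forms the core of the filament, NEFM and NEFH, the medium and heavy chains, add long tails that project from it, and alpha-internexin joins the same polymers and appears early in neuronal development. The genes are usually silent in epithelium, and are of interest in prostate cancer because treated tumours can gain neuronal and neuroendocrine features.

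The cells are a castrate-resistant derivative of the LNCaP line. RNA sequencing was carried out on 3 libraries for each of 3 groups, namely shScramble, the non-targeting control, shMETTL3 guide 2 and shMETTL3 guide 1. METTL3 encodes the catalytic subunit of the enzyme that writes m6A on RNA, and the comparison asks how its depletion alters basal gene expression. Each shRNA was carried by a doxycycline-inducible pLKO.1-puro lentivirus made in HEK293T cells, a human embryonic kidney line, and cells with stable integration were selected with puromycin. All groups, the control included, were grown without phenol red in charcoal-stripped serum, which is poor in steroids, and received 1 μg/mL doxycycline for 6 days, and the titles add that they were given vehicle. The sources do not say that the 3 libraries of a group came from separate cultures or separate infections, so the errors and p-values measure only the spread between these libraries.

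The libraries held between 21899501 and 30897639 counts in all. METTL3 itself gave 922, 1010 and 753 counts with shScramble, 382, 415 and 349 with guide 2, and 837, 837 and 886 in the libraries labelled guide 1. It was lower with guide 2 (log2 fold change -0.95, SE 0.07, adjusted p = 2.97e-12 by edgeR's quasi-likelihood test), whereas in the libraries labelled guide 1 the value was -0.08 (SE 0.06, adjusted p = 0.251). Guide 1 is used here as the label of these libraries, not as a statement that METTL3 was depleted. Of 11 prostate luminal markers, all were detected in every group, with a summed level of 2691 to 2717 counts per 1000000 counts of the library (CPM) with shScramble, 3051 to 3187 with guide 2 and 1397 to 1443 with guide 1.

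INA (ENSG00000148798) lies on chromosome 10 of GRCh38, the build of the files, from 103277163 to 103290351 on the plus strand in 3 exons. NEFH (ENSG00000100285) is on chromosome 22, from 29480230 to 29491390 on the plus strand in 4 exons.

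The promoter of INA is shown as the only regulatory sequence matched in RefSeq for the 4 members. It covers the 250 bases before the RefSeq start, at chr10:103276888-103277137 on the plus strand of GRCh38.p14. Capitals mark 4 GC boxes (CCGCCC), which begin 119, 61, 47 and 12 bases before the start, and 1 E-box (CAGCTG), which begins 144 bases before it.
INA promoter: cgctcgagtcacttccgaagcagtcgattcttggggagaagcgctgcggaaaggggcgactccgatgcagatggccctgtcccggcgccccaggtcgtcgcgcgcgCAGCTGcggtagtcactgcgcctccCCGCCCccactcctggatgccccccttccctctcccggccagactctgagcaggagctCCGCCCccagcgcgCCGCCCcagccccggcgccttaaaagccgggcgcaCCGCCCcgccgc
Both strands were searched, and the motifs do not overlap. Of 35116 RefSeq promoter windows of the same length, 42.6% held a GC box and 14.0% held this E-box. TATAAA was not among the letters of the INA window, and 10.7% of windows held it. The window was 72.8% G and C, above 85.3% of promoters, whose median was 58%. These matches describe the letters of the window and are not evidence of binding.

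NEFM and NEFL lie side by side on chromosome 8. NEFM (ENSG00000104722) runs from 24913012 to 24919098 on the plus strand in 4 exons, and NEFL (ENSG00000277586) from 24950955 to 24957110 on the minus strand in 4 exons, with 31.9 kb between them. This pair thus shares a locus, while INA and NEFH are on chromosomes of their own.

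NEFM, the medium chain, gave 27, 45 and 32 counts with shScramble, 1, 0 and 3 with guide 2 and 1274, 1186 and 1304 with guide 1. The groups did not overlap, and the guide 2 libraries were at the limit of detection, taken as 3 counts. As background to this, all guide 2 libraries were below all shScramble libraries for 34.1% of tested genes, all guide 1 libraries were above them for 36.5%, and guide 2 was wholly below guide 1 for 40.4%. Scaled to library size, this was 1.23 ± 0.308 CPM (SD, n = 3) with shScramble, 0.0598 ± 0.0695 with guide 2 and 43.7 ± 1.02 with guide 1. From the summed counts, the level with shScramble was 21.3 times that with guide 2 (95% counting interval 8.09 to 79.8), and that with guide 1 was 36.0 times that with shScramble (29.6 to 44.1). These intervals cover counting error only.

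NEFL, the core subunit, followed the same order. Its counts were 47, 63 and 33 with shScramble, 4, 3 and 6 with guide 2, and 1222, 1260 and 1447 with guide 1. No library of one group reached the range of another, and each guide 2 library still held a few reads. The means were 1.65 ± 0.288 CPM (SD, n = 3), 0.188 ± 0.0773 and 45.6 ± 2.76. The shScramble level was 9.02 times that with guide 2 (95% counting interval 5.11 to 17.4), and the guide 1 level was 27.3 times that with shScramble (23.1 to 32.5).

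INA, which encodes alpha-internexin, was the most abundant of the family in the control. It gave 123, 150 and 107 counts with shScramble, 5, 1 and 5 with guide 2, and 1238, 1025 and 1375 with guide 1, again without overlap. Its means were 4.46 ± 0.416 CPM (SD, n = 3), 0.161 ± 0.105 and 42.1 ± 4.70. INA thus had the widest gap of the 3 between shScramble and guide 2, 28.3 times by the summed counts (95% counting interval 15.7 to 57.3), whose interval overlapped those of NEFM and NEFL. It had the narrowest between guide 1 and shScramble, 9.51 times (8.55 to 10.6), an interval clear of those of NEFM and NEFL.

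On the log2 scale of the edgeR fit, guide 2 against shScramble gave -4.31 (SE 0.47) for NEFM, -3.14 (SE 0.31) for NEFL and -4.79 (SE 0.29) for INA, against a median of -0.04 over the genes tested. The libraries labelled guide 1 against shScramble gave 5.16 (SE 0.13), 4.77 (SE 0.11) and 3.24 (SE 0.11), against a median of -0.02. All 3 genes thus lay below the control with one guide and above it with the other. Both comparisons use the same shScramble libraries. Between the guides themselves the values were -9.47 (SE 0.21), -7.91 (SE 0.17) and -8.03 (SE 0.19). These SE were worked back from the F statistic and are too narrow where guide 2 held few counts. DESeq2 gave SE of 0.73, 0.41 and 0.45 between the guides, and of 0.74, 0.43 and 0.45 in guide 2 against shScramble. By the summed counts NEFM was 767 times higher with guide 1 than with guide 2 (95% counting interval 299 to 2816). NEFL was 246 times higher (144 to 463) and INA 270 times (151 to 540). The fitted values of NEFM against guide 2 rest on 4 counts and moved with 1 library: without guide 2 replicate 3, its value against shScramble was -5.59. As background, 29.3% of tested genes were called in guide 2 against shScramble, 37.7% in guide 1 against shScramble and 47.3% between the guides, of which 28.2% of genes were lower with guide 2, where called means an adjusted p under 0.05 with a fold of at least 1.5.

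NEFH, the heavy chain, was near the limit of detection in every group. Its counts were 6, 6 and 6 with shScramble, 9, 4 and 4 with guide 2, and 1, 1 and 4 with guide 1, or 0.215 ± 0.0414, 0.244 ± 0.127 and 0.0683 ± 0.0567 CPM (SD, n = 3). Guide 2 and shScramble overlapped, whereas every guide 1 library was below every library of the other groups after scaling. The ratio of guide 2 to shScramble was 1.15 (95% counting interval 0.558 to 2.37, two-sided exact permutation p = 1), and that of guide 1 to shScramble was 0.331 (0.108 to 0.871, exact permutation p = 0.1, the smallest that 3 against 3 libraries allow). Guide 2 was 3.48 times guide 1 (1.31 to 10.8, exact permutation p = 0.1). Among tested genes, 34.5% were lower without overlap in guide 1 against shScramble, and 35.4% were higher without overlap in guide 2 against guide 1. In an edgeR quasi-likelihood fit without the filter on low counts, the adjusted p of NEFH was 0.910, 0.147 and 0.0795 in the same order, so no change in NEFH passed the test. On the log2 scale of mean CPM, the values of guide 1 against shScramble and guide 2 against guide 1 were -1.66 and 1.83, and moved to -2.60 and 2.78 without guide 1 replicate 3, which held 4 of the 6 guide 1 counts. Its point values ran opposite to those of the other members in both comparisons with guide 1.

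**Figure D1:**
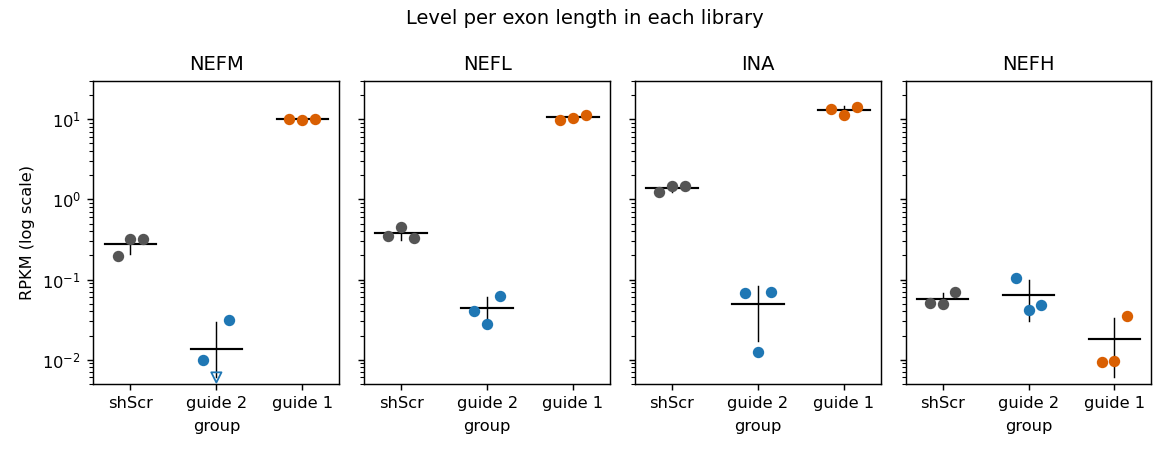
Level of each member in CPM per kilobase of exon (RPKM, log scale) in the 9 libraries, with 1 point per library, the group mean as a horizontal line and 1 SD as a vertical line, cut at the axis where it would reach 0. The open triangle is a library with 0 counts. NEFM, NEFL and INA stand in 3 separate tiers, with guide 2 lowest and guide 1 highest, while NEFH stays below 0.11 RPKM throughout.

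Dividing CPM by exon length in kilobases, which gives RPKM, allowed the members to be compared with each other. In RPKM, the shScramble order was INA (1.38 ± 0.129, SD, n = 3), NEFL (0.381 ± 0.0666), NEFM (0.281 ± 0.0704) and NEFH (0.0569 ± 0.0110). The ranges over libraries did not overlap between neighbours, although those of NEFL and NEFM came close, at 0.334 to 0.457 and 0.199 to 0.323. NEFM shares 38.9% of its exon bases with another gene, NEFL 11.3% and INA none. The order therefore also depends on how shared reads were counted, which is not given in the sources used here. With guide 1 the order was INA (13.0 ± 1.45), NEFL (10.5 ± 0.636), NEFM (9.97 ± 0.233) and NEFH (0.0181 ± 0.0150). Here NEFL and NEFM overlapped, and INA lay slightly above them, at 11.4 to 14.2 against at most 11.2. With guide 2 the means were 0.0644 ± 0.0337 for NEFH, 0.0499 ± 0.0325 for INA, 0.0435 ± 0.0179 for NEFL and 0.0136 ± 0.0159 for NEFM, and no neighbours in this order could be separated.

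Set among the tested genes by mean RPKM, INA was above 35.4% of them with shScramble, NEFL above 17.4% and NEFM above 13.9%. With guide 1 the same genes were above 79.7%, 75.2% and 73.9%, and with guide 2 above 6.46%, 5.89% and 2.85%. NEFM, NEFL and INA therefore moved from the weakly detected genes into the upper part of the range in the libraries labelled guide 1. NEFH, at 2.96%, 0.0882% and 7.59% for shScramble, guide 1 and guide 2, stayed among the lowest.

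The make-up of the family's RNA differed between groups as well as its amount. INA was 65.9% ± 1.87 (SD, n = 3) of the summed RPKM of the 4 genes with shScramble and 38.8% ± 2.34 with guide 1. NEFL went from 18.2% ± 2.47 to 31.4% ± 1.80, and NEFM from 13.2% ± 2.06 to 29.8% ± 1.44. In the control INA made up most of the total, whereas with guide 1 INA, NEFL and NEFM held more even shares. For each of the 3 genes the shScramble and guide 1 shares did not overlap. NEFH was 2.72% ± 0.513 and 0.0525% ± 0.0410. The shares within a group carry the same limit from shared exon bases as the order in RPKM. In the guide 2 libraries the shares rest on 19, 8 and 18 counts in all, and ranged from 22.6% to 51.3% for NEFH and from 0% to 14.7% for NEFM. Their NEFM and NEFL shares overlapped those with shScramble.

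The spread among replicates was compared with what counting alone would give. For NEFM the coefficient of variation was 25.1% with shScramble, against 17.0% from counting, and 2.33% with guide 1, against 2.82%. For NEFL it was 17.5% against 14.5% and 6.05% against 2.76%, and for INA 9.32% against 8.89% and 11.2% against 2.87%. Among these 3 genes, the guide 1 libraries varied least in NEFM, by no more than counting error, and most in INA, whose lowest library held 1025 counts. The guide 2 values rest on few counts, at 116%, 41.0% and 65.2% for NEFM, NEFL and INA against 86.6%, 48.0% and 52.2% from counting. NEFH was at 83.0% with guide 1, against 70.7%, on 6 counts.

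Over the 9 libraries, log2 CPM of NEFM and NEFL had a Pearson r of 0.997, NEFM and INA of 0.977 and NEFL and INA of 0.968. These values describe 3 groups rather than 9 independent points, since the libraries fall into separate tiers. A high r among the 3 genes also largely follows from their choice by the gap between the guides. The genes most like NEFM were SYDE1 (r = 0.999), NCAM1 (0.999) and SNAI2 (0.999), the most like NEFL were COCH, ANO5 and PTPN13 (each 0.999), and the most like INA were FIGN (0.997), SLC9A8 (0.997) and FOXD3-AS1 (0.996). The likeness was not rare. Of the 15422 genes compared, 1509 had an r above 0.95 with NEFM, 1640 with NEFL and 986 with INA.

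Other intermediate filament genes were examined next, from a list of 14 of which 12 were tested. Of these, 3 rose and 4 fell with guide 2, and 7 rose and 1 fell with guide 1, with median log2 fold changes of 0.12 (-0.03 when libraries were scaled by size alone) and 0.84. Among all tested genes, the shares that rose and fell were 8.85% and 20.4% with guide 2, and 21.2% and 16.5% with guide 1. VIM, which encodes vimentin of mesenchymal cells, gave 690, 752 and 536 counts with shScramble, 83, 88 and 79 with guide 2 and 4821, 3674 and 4675 with guide 1. It fell by 2.70 on the log2 scale with guide 2 (SE 0.11, adjusted p = 2.97e-15, edgeR) and rose by 2.72 with guide 1 (SE 0.07, adjusted p = 2.20e-19), the direction of NEFM, NEFL and INA in both comparisons. IFFO1, an intermediate filament family orphan, had values of -1.97 and 2.99, called in each comparison. BFSP1, a lens filament protein, gave 13, 9 and 17 counts with shScramble, 2, 2 and 1 with guide 2 and 189, 150 and 171 with guide 1, and rose by 3.67 with guide 1. It passed the filter through its guide 1 counts and was not tested in a fit of the 6 shScramble and guide 2 libraries, so its value with guide 2 (-2.61) is a description. Other members of the list did not share this order: LMNB1 and LMNB2, B-type lamins of the nuclear envelope, rose in both comparisons (1.00 and 0.65, 0.82 and 1.03), and PRPH, peripherin, the filament protein of peripheral neurons that co-assembles with neurofilaments, fell in both (-1.52 and -0.60). LMNB1, LMNB2 and PRPH were named after their values were seen.

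Genes that carry, modify or degrade neurofilaments formed a further list, of which all 22 genes were tested. Of these, 2 rose and 3 fell with guide 2, and 4 rose and 3 fell with guide 1, with medians of -0.00 and -0.05. This was 22.7% and 31.8% of the list, beside 29.3% and 37.7% of all tested genes. KIF5A, the neuronal kinesin heavy chain, fell by 1.00 with guide 2 and rose by 1.85 with guide 1, and KIF5C, a related kinesin, fell by 0.80 and rose by 1.56. DYNC1H1, the dynein heavy chain, fell by 0.74 with guide 2 and was at 0.11 with guide 1, not called, while DST, dystonin, a linker between filaments and other parts of the cytoskeleton, was at -0.31 with guide 2, not called, and rose by 1.35 with guide 1. When libraries were scaled by size alone, 0 genes of the list rose and 5 fell with guide 2.

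Neuronal gene regulators included REST, the repressor that keeps many neuronal genes silent outside the nervous system. REST was at 67.9 ± 1.61 CPM (SD, n = 3) with shScramble, 64.5 ± 1.03 with guide 2 and 67.3 ± 2.97 with guide 1, and differed in neither comparison by edgeR (log2 fold changes of -0.07 and -0.01, adjusted p = 0.205 and 0.842). Of 20 genes, 14 were tested, and 1 rose and 4 fell with guide 2, and 8 rose and 1 fell with guide 1, with medians of -0.12 and 0.91. The shares of all tested genes are those given with the filament list. INSM1, a zinc finger factor of neuroendocrine differentiation, gave 14, 18 and 7 counts with shScramble, 3, 2 and 0 with guide 2 and 307, 210 and 258 with guide 1. It rose by 4.29 on the log2 scale with guide 1. SOX2, a stem and neural progenitor factor, gave 10, 21 and 19 counts with shScramble, 1, 4 and 3 with guide 2 and 171, 173 and 193 with guide 1, and rose by 3.40 with guide 1. The guide 2 values of INSM1 (-2.60) and SOX2 (-2.32) are a description, as neither gene was tested in the fit of the 6 shScramble and guide 2 libraries. POU3F2, a neural POU factor also called BRN2, had values of -1.03 and 3.12, both called. NEUROG2, a proneural factor, gave 2, 1 and 2 counts with shScramble and 30, 21 and 35 with guide 1, a ratio of 17.1 (95% counting interval 7.05 to 54.0).

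Markers of neuronal and neuroendocrine cells were examined as a further list. Of 19 genes, 15 were tested, and 1 rose and 8 fell with guide 2, and 12 rose and 0 fell with guide 1 by edgeR, with medians of -1.14 and 1.67. UCHL1, a neuronal ubiquitin hydrolase, fell by 2.75 and rose by 3.86 on the log2 scale, NCAM1, the neural cell adhesion molecule, fell by 2.90 and rose by 3.57, and NRCAM, a related adhesion molecule, fell by 2.91 and rose by 2.61. GAP43, a growth cone protein, gave 1, 1 and 0 counts with shScramble and 12, 13 and 16 with guide 1, a ratio of 20.4 (95% counting interval 5.29 to 174). Some markers of the list were hardly detected anywhere, although 9 of the 19 were at 1 CPM or more with shScramble. STMN2, stathmin 2, summed to 1, 0 and 2 counts over the shScramble, guide 2 and guide 1 libraries, and DCX, doublecortin, to 2, 0 and 6. TUBB3, the neuronal beta tubulin, gave 30, 12 and 16 counts in all. By contrast, STMN3, stathmin 3, was at 10.82, 12.71 and 25.35 CPM with shScramble, guide 2 and guide 1, and ENO2, neuronal enolase, at 6.605, 12.43 and 19.96. STMN2, DCX, TUBB3, STMN3 and ENO2 were named after their values were seen. With 8.85% of all tested genes rising and 20.4% falling with guide 2, and 21.2% rising and 16.5% falling with guide 1, these counts are a description of the lists.

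The lists include genes that reached the test only through high counts with guide 1. In a fit of the 6 shScramble and guide 2 libraries alone, 5 of 11 neuronal and neuroendocrine markers fell and 1 rose, 2 of 11 neuronal regulators fell and 1 rose, and 3 of 9 other filament genes fell and 3 rose. Over all 17754 genes tested in that fit, 9.03% rose and 19.1% fell. GFAP, SYNC, BFSP1, INSM1, SOX2, NEUROG2, CHGB, SCG3, SNAP25 and GAP43 were not tested in it, and all were called higher with guide 1. The numbers of list genes that rose with guide 1 thus include genes that entered the test through their guide 1 level. NEFM, NEFL and INA had log2 fold changes of -4.32 (SE 0.56), -3.14 (SE 0.39) and -4.80 (SE 0.32) in that fit.

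Markers of HEK293 cells, the kind of cell in which the virus was made, were examined as well. Of 10 such genes, 9 were tested, and 1 rose and 6 fell with guide 2, and 6 rose and 0 fell with guide 1 by edgeR, with median log2 fold changes of -2.36 and 2.58. Over all tested genes 8.85% rose and 20.4% fell with guide 2, and 21.2% rose and 16.5% fell with guide 1. Their summed level was 86.1 to 92.1 CPM with shScramble, 41.3 to 48.3 with guide 2 and 423 to 442 with guide 1, and none of the 10 was at 0 throughout a group. Neuronal intermediate filaments are known to be made by HEK293 cells. As a share of the guide 1 level, NEFM was at 2.82% ± 0.706 (SD, n = 3) with shScramble, NEFL at 3.62% ± 0.633 and INA at 10.6% ± 0.987. CDH2, N-cadherin, was at 7.09%, IGF2BP1, an RNA-binding protein of embryonic cells, at 10.8% and LIN28B, another, at 12.7%, the lowest of the 10 markers. Of the rest, VIM was at 15.2%, HMGA2 at 16.7%, MYCN at 41.9%, PAX2 at 44.3%, IGF2BP3 at 67.7%, NES at 105% and PAX8 at 201%. With guide 2, NEFM was at 0.137%, NEFL at 0.413% and INA at 0.383% of the guide 1 level, beside 0.568% for CDH2, 0.954% for HMGA2, 2.10% for IGF2BP1, 2.33% for VIM and 2.40% for LIN28B. MYCN was at 8.29% and PAX2 at 19.4%, and IGF2BP3 (62.6%), NES (168%) and PAX8 (179%) lay far above them. VIM and NES are also in the filament list.

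Over the same libraries 5 of the 11 prostate luminal markers fell and 0 rose with guide 1 (edgeR, median -0.58), and 1 fell and 2 rose with guide 2 (median 0.10, or -0.05 when scaled by library size alone), beside the same shares of all tested genes. The part of these marker genes in the neurofilament result was not tested. The guide label and the levels of both marker lists vary together, so they cannot be told apart in these libraries, and neither can fewer cells with these transcripts and less RNA per cell.

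Position was not used to choose the members, so the genes around them were examined. Within 1 Mb of the NEFM and NEFL, INA and NEFH loci, 72 other genes were tested. Of these, 26.4% were called in guide 2 against shScramble, 30.6% in guide 1 against shScramble and 31.9% between the guides, each below the share over all tested genes given above. Around NEFM and NEFL only 6 of 23 genes were tested, of which 0 rose and 4 fell with guide 2 and 2 rose and 0 fell with guide 1 by edgeR. One of them, ENSG00000272163, shares exon bases with NEFM and is among both the 4 and the 2. Without it, 3 of 5 fell with guide 2 and 1 of 5 rose with guide 1, and over the 3 loci 25.4%, 29.6% and 31% of 71 genes were called in the same order. EBF2, a transcription factor of neurons and brown fat, fell by 0.86 and rose by 1.33, the order of NEFM and NEFL, at a distance of 885 kb. DOCK5, at 228 kb the nearest tested gene on one side, with none tested on the other beyond the overlap, had values of -0.70, called, and -0.46, not called, and GNRH1, gonadotropin-releasing hormone, of -1.35, called, and 0.26, not called.

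ENSG00000272163 overlaps 38.9% of the exon bases of NEFM, and its reads cannot be told apart from those of NEFM there, as the strand setting of the counting is not given in the sources used here. It gave 8, 4 and 0 counts with shScramble, 0, 1 and 0 with guide 2 and 13, 14 and 19 with guide 1. These counts are few beside the 1186 to 1304 of NEFM with guide 1. They do not show whether NEFM lost reads in the shared bases. The genes that overlap 11.3% of the exon bases of NEFL and 8.80% of those of NEFH had 0 counts in all libraries. All 490 bases of the first and 333 of the 343 bases of the second lie in exons of these members. Since the handling of shared reads is not given, the 0 does not show whether NEFL or NEFH lost reads there. INA shares no exon base.

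INA and NEFH had neighbours of mixed behaviour. Around INA, 33 of 69 genes were tested, of which 1 rose and 5 fell with guide 2, and 5 rose and 6 fell with guide 1. PCGF6, a Polycomb group protein and the nearest tested gene on one side, at 12.4 kb, was at -0.18 with guide 2, not called, and rose by 1.54 with guide 1. NT5C2, a nucleotidase and the nearest on the other side, at 83.9 kb, was at -0.15, not called, and fell by 0.61. Other called genes with large values were MIR4482 (-1.18 and -1.68) and NEURL1 (-1.04, called, and 0.23, not called). Around NEFH, 33 of 83 genes were tested, and 6 rose and 3 fell with guide 2, and 4 rose and 5 fell with guide 1. The nearest, THOC5 at 14.5 kb and AP1B1 at 57.1 kb, were called in neither comparison (-0.00 and 0.23, 0.35 and -0.01). EMID1 rose by 2.45 and LIF-AS2 fell by 1.95 with guide 1, both not called with guide 2, and ENSG00000237015 fell by 1.75 and by 0.63.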

How the data were processed

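The members and lists were chosen with earlier results of these data known. The authors trimmed reads (Trim Galore, cutadapt, FastQC), aligned them with STAR to GRCh38 and deposited featureCounts counts per gene for each library, without normalization. Neither the strand setting nor the handling of reads with several matches is given in the sources used here. Symbols came from a later annotation and were matched for 56558 of 60675 genes (93.2%).

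Counts were fitted with edgeR 4.0.16 (R 4.3.3): TMM factors, filterByExpr (minimum count 10, minimum total 15), and the robust quasi-likelihood F test with all 9 libraries in one model and Benjamini-Hochberg adjustment over 19278 genes. Called means an adjusted p under 0.05 and a fold of at least 1.5. The SE given with edgeR values is the absolute log2 fold change divided by the square root of F. CPM used TMM library sizes, RPKM also the exon length of the files, and correlations log2 CPM with a prior count of 2 over genes of at least 1 CPM. Ratios of summed counts have exact 95% intervals for counting error. Totals were 21899501 to 30897639, where 3 counts are 0.0971 to 0.137 CPM. NEFH failed the filter, so the planned test was replaced by an exact permutation test of CPM. Scripts were tested on simulated counts.

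Named list genes were up to 3 called genes per list and comparison with the largest absolute log2 fold change, and REST. Named neighbours were the nearest tested gene on each side and up to 3 called genes per locus with the largest change. Named similar genes were the 3 with the highest Pearson r. Alternatives were DESeq2 1.42.0, its size factors in edgeR, library size alone, no filter, a filter at a mean of 1 CPM, a fit of 6 libraries, a block for the replicate number, leaving out each library, and the adjusted p alone.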

Additional observations from a re-analysis of the deposited data

Results flagged for a closer look

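The effects of the guides against shScramble differed, by edgeR's quasi-likelihood test of guide 2 against guide 1 with the same thresholds, for 24 of the 26 other genes looked at. Most of these were named for large changes against shScramble, which the comparison of the guides shares, and 47.3% of all tested genes were called between the guides, so the count is a description. Groups of 3 libraries were too small for a check of single outlying libraries. Values are log2, guide 2 minus guide 1, and negative values are lower with guide 2. METTL3 was at -0.86. Among filament genes VIM was at -5.42, BFSP1 at -6.29 and IFFO1 at -4.96. Among genes that handle neurofilaments KIF5A was at -2.85, KIF5C at -2.36, DYNC1H1 at -0.85 and DST at -1.66. Regulators gave -6.89 for INSM1, -5.72 for SOX2, -4.15 for POU3F2 and -5.73 for NEUROG2, and markers gave -5.52 for NRCAM, -6.48 for NCAM1, -6.61 for UCHL1 and -3.86 for GAP43. Near the members, ENSG00000272163 was at -4.83, GNRH1 at -1.61, EBF2 at -2.19, PCGF6 at -1.72, NEURL1 at -1.27, EMID1 at -2.60, LIF-AS2 at 1.84 and ENSG00000237015 at -1.12. The fitted values of NEUROG2, GAP43 and ENSG00000272163 rest on 2 counts or fewer over the guide 2 libraries and depend on the prior count. These genes, with BFSP1, INSM1 and SOX2, passed the filter through their guide 1 counts, so their values between the guides are a description.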

How the results depend on the processing

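Over 23 results and 355 alternatives, 344 kept their direction and stayed near the value reported. This meant within 1.5 times for counts of calls, within 1 SD of the replicates for NEFM, NEFL and INA, and on the same side of the test for NEFH. Of the 344, 179 were counts of calls, and 142 were values of NEFM, NEFL and INA, which were chosen for their gap between the guides. The other 23 were of NEFH, whose exact permutation test cannot give a p under 0.1 with 3 against 3 libraries. The total is therefore not a measure of robustness. With the adjusted p alone, 11910, 13188 and 14386 genes passed for guide 2 and guide 1 against shScramble and between the guides (5645, 7265 and 9125 with the fold limit), as did 15 and 15 genes that handle neurofilaments (5 and 7) and 8 neuronal regulators with guide 2 (5), since the fold limit was dropped. With the 6 libraries compared alone, 3 neuronal regulators were called with guide 2, and with a minimum mean of 1 CPM 5 neuronal and neuroendocrine markers were (9), since fewer genes were tested. Leaving out each library moved NEFM from -5.59 to -3.71 in guide 2 against shScramble and from -10.7 to -8.87 between the guides, on 4 guide 2 counts. NEFH in guide 2 against shScramble, in log2, ranged from -0.34 to 0.41, and turned to -0.34 without guide 2 replicate 1. Alternatives other than leaving out a library left NEFM, NEFL and INA within -4.45 to -4.29, -3.29 to -3.12 and -4.93 to -4.76 in guide 2 against shScramble. Library size alone moved the median of all genes from -0.04 to -0.19 with guide 2 and from -0.06 to -0.20 between the guides, and the share of calls that were higher from 30.2% to 17.2% and from 40.4% to 31.3%. It also turned the median of the other filament genes with guide 2 to -0.03 and that of the prostate markers to -0.05. Same-numbered libraries did not deviate together (r from -0.0981 to 0.0529 over 9 pairs), so the numbers do not pair them, and with the replicate block 5494 genes were called in guide 2 against shScramble. NEFH was not run in DESeq2, with its size factors, with a minimum mean, with 6 libraries or with the block, because its counts were too low. At these depths, where 3 counts are 0.0971 to 0.137 CPM, the lowest levels, which include NEFH and all members with guide 2, could not be ranked.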
